A study of Mus musculus with 27 samples.

Results

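WT gastrocnemius muscle collected 14 days after cardiotoxin (CTX) injury (D14) was compared with uninjured WT muscle, to ask which transcripts were still away from the uninjured level late in repair. The comparison used 6 of the 27 libraries of the series, 3 per group, taken by their sample titles. All genes present in the tables of both groups were eligible, and 11667 genes were tested. They had at least 1 TPM (a relative abundance per transcript length, summing to an equal total in each library) in at least 3 of the 6 libraries. Because the groups stand in separately normalised tables, a gene was also required to have mean TPM within 20% between the tables in 3 WT D1 libraries that both tables hold. This step removed 549 of 12216 expressed genes. The whole series also contains CTX-injured WT and Gsdme KO muscle at D1, D4, D7 and D14.

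The D14 group was WT muscle injected with CTX, a cobra toxin that destroys muscle fibres. The control group was WT muscle with no time point in its labels. The study used male mice and describes C57BL/6J animals from a supplier as well as WT littermates from crosses of Gsdme heterozygotes, and the labels do not say which gave either group or their age. The study calls the uninjured muscle contralateral and collected on the day after injury, while the deposited design text speaks of thigh muscle and an unloaded control. Uninjured and day-after muscle were described as 1 sequencing batch and the WT and KO time points as another. The D1 libraries that stand in both tables could belong to either, so batch and injury cannot be told apart in any difference given here. Age, leg and hour of collection cannot be told apart from injury either. The replicates are called biological triplicates in the deposited text.

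After CTX, damaged fibres are cleared by neutrophils and macrophages, and satellite cells, the stem cells of muscle, divide and fuse into new fibres. New fibres first use embryonic and neonatal myosins and then the adult fast or slow set. Fibro-adipogenic progenitors (FAPs) meanwhile lay down a transient matrix and can become adipocytes, and Schwann cells support the regrowth of motor axons.

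At D14, genes of fast fibres, adipocytes and myelin were called lower more often than all genes tested, and endothelial and interferon-stimulated genes were called higher more often. Single FAP, matrix, macrophage and respiratory chain genes rose too, the last 3 groups at about the share of all genes or below it. The 3 FAP calls included Tcf4, which is not particular to FAPs. Of the 11667 genes, limma called 1118 (9.58%) at an adjusted p under 0.05, of which 783 (6.71%) rose and 335 (2.87%) fell. A change of at least 2-fold was called for 241 genes (2.07%), 146 of them higher (1.25%) and 95 lower (0.814%). Differences are given as D14 minus control on log2(TPM + 1) ± SE (n = 3 per group) and understate the change of low genes. Library values are listed in the order of replicates 1, 2 and 3. The median difference of all genes was 0.116, and it was 0.0104 after median-of-ratios scaling and -0.00728 after quantile normalization. The split of calls moved with it, from 783 higher and 335 lower to 628 and 706 by median-of-ratios scaling and to 432 and 490 by quantile normalization. In all of these fits and in the fit aligned on the D1 libraries, 637 genes kept their call and direction, 359 higher and 278 lower.

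**Figure D1:**
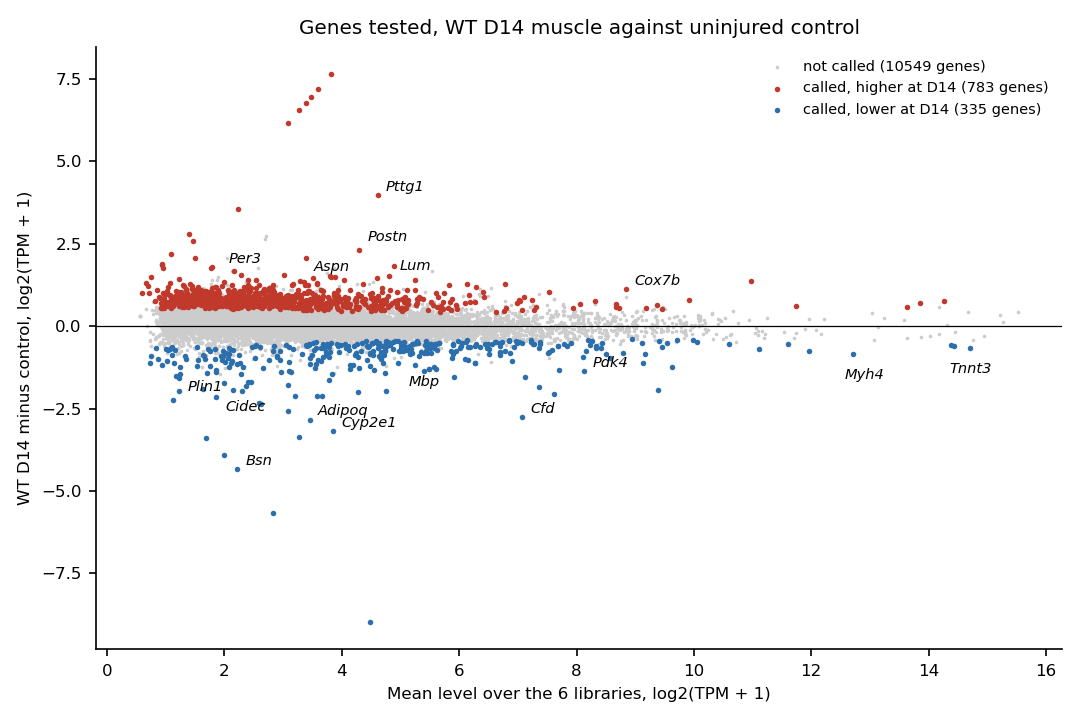
Difference between WT D14 and control muscle (y axis, log2(TPM + 1)) against the mean level over the 6 libraries (x axis, log2(TPM + 1)), 1 point per gene, for 11667 genes. Red points are the 783 genes called higher and blue points the 335 called lower, and the red points above 6 on the y axis are genes listed at 0 in the controls.

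The libraries correlated at r of 0.9724 to 0.9813 across genes within D14, 0.9846 to 0.9882 within controls and 0.9542 to 0.9698 between the groups. Genes with at least 1 TPM numbered 12329 to 12996 at D14 and 11785 to 12033 in controls, and TPM values hold no sequencing depth. The number of calls depended on single libraries. It was 113 without control replicate 1, 341 without control replicate 2, 280 without control replicate 3, 395 without D14 replicate 1, 655 without D14 replicate 2 and 1773 without D14 replicate 3. Of the genes named in the text, 127 were called with all libraries and 33 of these kept the call without control replicate 1. The libraries of D14 and control did not overlap for 34.0% of all genes (23.3% above and 10.8% below control). All 12 skeletal myofibre markers had at least 1 TPM and together held 15, 15.1 and 14.2% of all TPM in the controls and 10.6, 11.2 and 10.6% at D14, as a check of the labelled tissue. In whole muscle, fewer cells of a type and less RNA per cell cannot be told apart.

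Fast-fibre transcripts were in part below the control level at D14. Of 22 genes of the fast fibre list, 8 fell, 0 rose and 14 did not pass the test. The list's median difference was -0.37, which is -0.48 relative to the median of all genes. The 12 skeletal myofibre markers, which share Myh4 and Tnnt3 with this list, had a like median of -0.351. Of their differences 10 were negative and 2 positive. Whether the fall was particular to fast-fibre genes was not tested. Myh4, the fast type IIb myosin heavy chain, was 9396, 8139 and 9455 TPM in the controls and 4590.0, 4978 and 5576 TPM at D14. All D14 values lay below all control values (log2 difference -0.83 ± 0.13, adjusted p = 0.0114). Actn3, the fast-fibre actinin of the Z-disc, was 5512, 5633 and 4449 TPM in the controls and 2562, 3674 and 3093 TPM at D14. These groups did not overlap either (log2 difference -0.75 ± 0.16, adjusted p = 0.0295). Troponin and tropomyosin genes of the thin filament behaved alike in direction. Tnnt3, fast troponin T, was 34066, 34753 and 32834 TPM in the controls and 21179, 21438 and 21227 TPM at D14, a fall from a very high level (log2 difference -0.67 ± 0.12, adjusted p = 0.0159). Tnni2 (-0.57 ± 0.12) and Tpm1 (-0.61 ± 0.14) fell too, and both lost the call under quantile normalization and median-of-ratios scaling. Mylk2, the kinase of the fast regulatory light chain, was 369.5, 346 and 382 TPM in the controls and 241, 232 and 270.1 TPM at D14 (log2 difference -0.56 ± 0.11, adjusted p = 0.0213). Mybpc2, fast myosin-binding protein C, and Ampd1, muscle AMP deaminase, completed the called members at -0.54 ± 0.12 and -0.50 ± 0.12. Under quantile normalization the calls of Myh4, Actn3 and Ampd1 were lost, that of Ampd1 also under median-of-ratios scaling.

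Summed over the 22 genes, the fast fibre list held 26.2, 27.2 and 24.6% of all TPM in the controls and 18.5, 21 and 19.4% at D14. The ranges were apart (exact permutation test, two-sided, p = 0.1, the smallest value that 3 against 3 can give). The direction of the list's median was the same under quantile normalization and median-of-ratios scaling, which called 3 and 6 of the 22 genes lower. Without control replicate 1 the list had 0 calls, and without D14 replicate 1, control replicate 2 or control replicate 3 it had 1 in each case.

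The window around the Myh4 start site is printed because Myh4 had the largest fall of the fast list and lies in the RefSeq promoter table (250 bases before to 50 after the start site, GRCm38.p6, chr11:67237562-67237861, plus strand). Capitals mark a CArG box, the element of serum response factor, 104 bases before the start, and CAGCTG, an E-box bound by myogenic factors, 67 bases before it. Both strands were searched.
Myh4: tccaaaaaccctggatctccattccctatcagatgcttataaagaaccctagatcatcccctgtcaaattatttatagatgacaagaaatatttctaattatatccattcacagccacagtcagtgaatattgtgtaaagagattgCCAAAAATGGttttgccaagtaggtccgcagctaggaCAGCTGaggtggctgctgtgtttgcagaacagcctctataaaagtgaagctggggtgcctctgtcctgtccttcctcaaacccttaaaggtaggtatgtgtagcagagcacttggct
The 16 fast-list genes that matched had 21 windows, and 2 of the genes held a CArG box (Ldha and Myh4) and 8 held CAGCTG. Over all 32851 windows the shares were 1.63% and 16.3%. The list is counted by gene and the background by window, and a gene with more windows can match more easily. The figures are therefore not like for like. These are matches of letters only.

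Other adult myosins showed no such separation. Myh1, the IIx isoform, was 634, 442 and 706 TPM in the controls and 1098, 417 and 793 TPM at D14, with overlapping groups (log2 difference 0.29 ± 0.33, adjusted p = 0.587). Myh2, the IIa isoform, was 428, 127 and 506 TPM in the controls and 659, 177 and 426 TPM at D14 and did not pass the test (log2 difference 0.28 ± 0.58, adjusted p = 0.774). Myh7, the slow isoform, was 135, 108 and 329.7 TPM in the controls and 304, 221 and 141 TPM at D14, again with overlapping groups (log2 difference 0.32 ± 0.41, adjusted p = 0.63). The signs of the Myh1 and Myh2 differences turned when a single library was left out. Of 22 genes of the slow and oxidative list, 2 rose and 1 fell (13.6% called, beside 9.58% of all genes). Casq2, the calsequestrin of slow and cardiac muscle, was 14.6, 10.3 and 22.9 TPM in the controls and 34.4, 30.8 and 29.4 TPM at D14 (log2 difference 1.01 ± 0.24, adjusted p = 0.0375). Esrrg, an orphan nuclear receptor of oxidative fibres, was 2.07, 1.52 and 3.23 TPM in the controls and 6.13, 3.97 and 5.7 TPM at D14 (log2 difference 0.95 ± 0.23, adjusted p = 0.0372), and it lost the call under quantile normalization. Ppargc1a, the coactivator of mitochondrial biogenesis, moved the other way, from 17.5, 11.5 and 14.5 to 6, 7.15 and 9.25 TPM (log2 difference -0.87 ± 0.20, adjusted p = 0.0323). Esrrg and Ppargc1a lost the call when the tables were aligned on the D1 libraries.

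**Figure D2:**
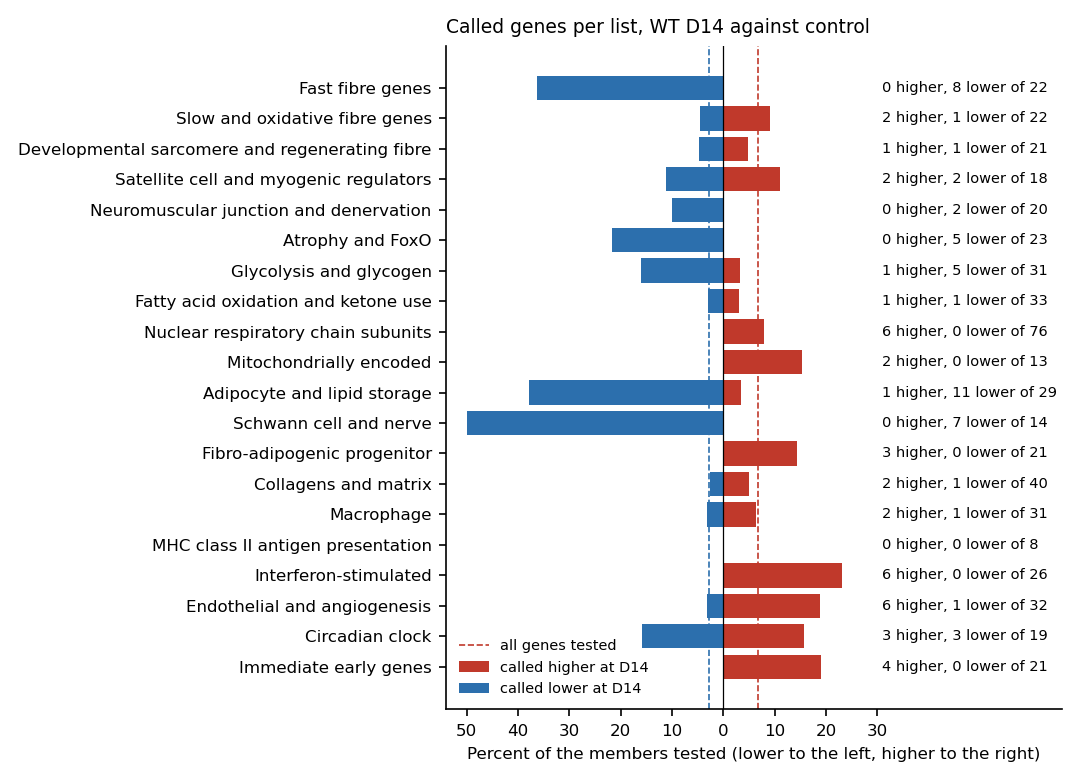
Percent of the tested members of 20 gene lists that were called higher (red, to the right) or lower (blue, to the left) at D14. Dashed lines mark the same shares over all 11667 genes (6.71% and 2.87%). The Schwann cell, adipocyte and fast fibre lists reach farthest to the left.

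The embryonic and neonatal myosins were at low levels in both groups. Myh3, embryonic myosin, was 0.7, 0.41 and 0.86 TPM in the controls and 0.82, 3.52 and 0.52 TPM at D14, against a D4 mean of 463 TPM and a D7 mean of 95.5 TPM. It stayed under the TPM minimum and was not tested. Myh8, neonatal myosin, was 0.55, 1.21 and 0.51 TPM in the controls and 1.15, 2.77 and 0.56 TPM at D14 and was removed by the D1 agreement rule. Pax7, the satellite cell regulator, was 0.52, 0.3 and 0.52 TPM in the controls and 1.3, 1.36 and 0.78 TPM at D14. All Pax7 values at D14 lay above the controls, but the gene was too low to be tested. Of 21 tested genes of the developmental sarcomere list, 1 rose and 1 fell (9.52% called, beside 9.58% of all genes), and 13 differences were negative. The list's median difference was -0.22, which is -0.34 relative to the median of all genes. Nes, the intermediate filament nestin of young fibres and junctions, was 6.54, 5.64 and 6.65 TPM in the controls and 11.5, 13.6 and 11.2 TPM at D14 (log2 difference 0.85 ± 0.14, adjusted p = 0.0136). Xirp1, an actin-binding protein of remodelling fibres, was 61.6, 30.0 and 42.1 TPM in the controls and 20.7, 12.5 and 13.9 TPM at D14 (log2 difference -1.42 ± 0.27, adjusted p = 0.0192).

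Of 18 satellite cell and myogenic genes tested, 2 rose and 2 fell (22.2% called, beside 9.58% of all genes). Mef2c, a transcription factor of muscle differentiation, was 46.1, 48.2 and 58.6 TPM in the controls and 98, 96.5 and 103 TPM at D14. Its groups were far apart relative to their spread (log2 difference 0.95 ± 0.12, adjusted p = 0.0059), and the call was kept in all 20 alternatives. Mef2a rose by less, 0.73 ± 0.12. Sdc4, a heparan sulfate proteoglycan of satellite cells, was 22.2, 16.2 and 22.7 TPM in the controls and 11.3, 14.2 and 11.9 TPM at D14 (log2 difference -0.66 ± 0.16, adjusted p = 0.0413), and Des, the intermediate filament desmin of all fibres, fell by 0.42 on the log2 scale. Des lost the call under quantile normalization and in all 6 leave-one-out fits. Of 20 neuromuscular junction and denervation genes, 0 rose and 2 fell (Hdac4 and Mypn, -0.69 ± 0.17 and -0.63 ± 0.14). Chrna1, the acetylcholine receptor subunit that rises after denervation, was 5.91, 5.19 and 6.26 TPM in the controls and 5.5, 5.27 and 4.1 TPM at D14 and did not pass the test (log2 difference -0.19 ± 0.15, adjusted p = 0.437). Cacng1 and Cacna1s, subunits of the muscle calcium channel, both fell, by 0.72 and 0.51 on the log2 scale.

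**Figure D3:**
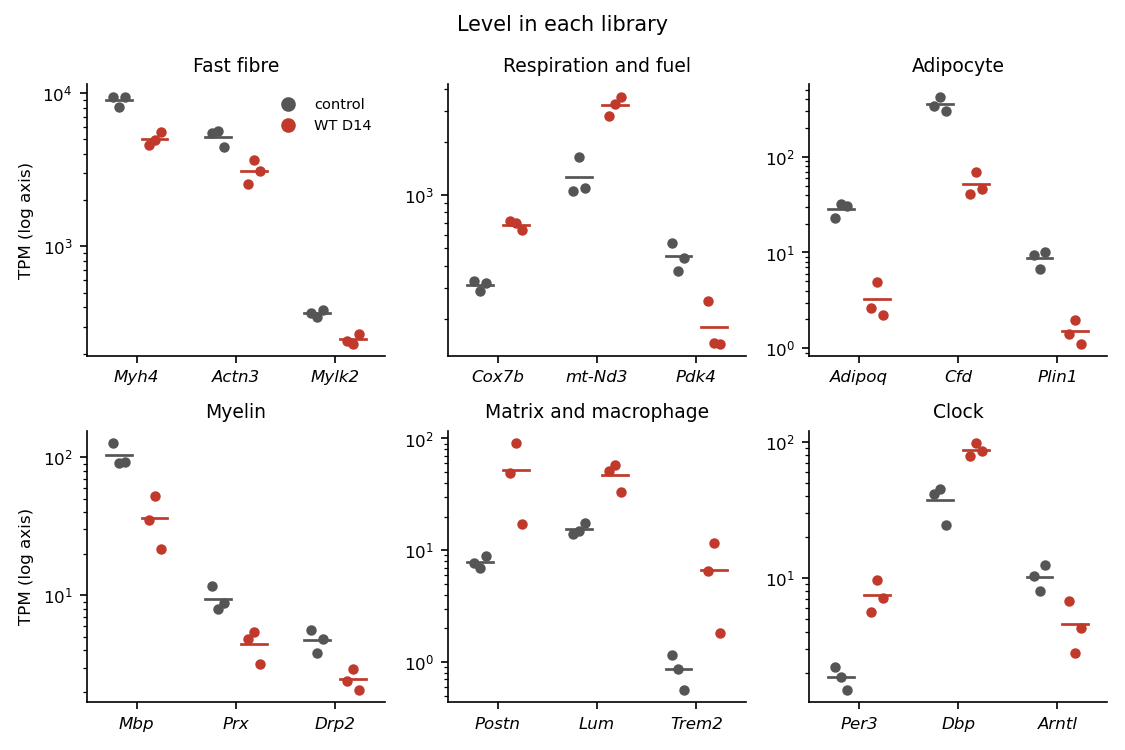
TPM of 18 genes (log axis) in each of the 3 control libraries (grey) and 3 D14 libraries (red), with bars at the group means. In each gene shown the groups do not overlap, and D14 replicate 3 is the lowest D14 point of Postn, Lum and Trem2.

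Some transcripts of the mitochondrion rose. Of 13 mitochondrially encoded genes 2 rose and 0 fell (15.4% called, beside 9.58% of all genes), and 10 differences were positive and 3 negative. mt-Nd3, a complex I subunit, was 1064, 1648 and 1098 TPM in the controls and 2827, 3295 and 3613 TPM at D14 (log2 difference 1.38 ± 0.18, adjusted p = 0.0066), a separation without overlap. mt-Cytb of complex III was 9258, 10629 and 11299 TPM in the controls and 16742, 13688 and 16663 TPM at D14 (log2 difference 0.59 ± 0.14, adjusted p = 0.0374), and its call was lost under median-of-ratios scaling. All mitochondrially encoded genes together held 12.2, 14 and 14.2% of all TPM in the controls and 16.4, 15.1 and 18.1% at D14 (exact permutation test, two-sided, p = 0.1, the smallest possible). Gm28437, annotated as a pseudogene, was among the 5 most abundant entries of each library, and reads of mitochondrial genes may be split with such nuclear copies.

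Of 76 nuclear respiratory chain genes 6 rose and 0 fell (7.89% called), beside 6.71% of all genes called higher, with 51 positive and 25 negative differences. The list's median difference was 0.11, which is -0.01 relative to the median of all genes, and it became -0.013 under median-of-ratios scaling. Cox7b, a subunit of cytochrome c oxidase, was 328, 289 and 319 TPM in the controls and 712, 696 and 639 TPM at D14. This was the clearest change of the list (log2 difference 1.13 ± 0.11, adjusted p = 0.00158), and the call was kept in all 20 alternatives. Cox6c of the same complex was 664, 869.8 and 677 TPM in the controls and 1151, 1398 and 1271 TPM at D14 (log2 difference 0.80 ± 0.14, adjusted p = 0.0159), lost under median-of-ratios scaling. Ndufa2 (0.68 ± 0.11), Ndufa1 (0.58 ± 0.10), Ndufa5 (0.54 ± 0.10) and Ndufa6 (0.55 ± 0.12), all of complex I, made up the rest, and of these Ndufa2 alone kept the call under median-of-ratios scaling.

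Single genes of fatty acid oxidation moved in both directions, and most glycolysis and glycogen genes had negative differences. Pdk4, the kinase that turns off pyruvate dehydrogenase in fasting, was 539, 371 and 444 TPM in the controls and 251, 145 and 145 TPM at D14 (log2 difference -1.35 ± 0.23, adjusted p = 0.0142). Etfa, which passes electrons from fatty acid oxidation to the respiratory chain, was 96.5, 92.8 and 111 TPM in the controls and 193, 142 and 175 TPM at D14 (log2 difference 0.75 ± 0.14, adjusted p = 0.0192). These were the 1 gene lower and the 1 gene higher among 33 fatty acid oxidation genes. That is 6.06% called, below the 9.58% of all genes. Of 31 glycolysis and glycogen genes 5 fell and 1 rose (19.4% called), with 6 positive and 25 negative differences. The list's median difference was -0.234, which is -0.35 relative to the median of all genes. The list had 1 gene called lower without D14 replicate 1, control replicate 1 or control replicate 2. Slc2a3, the glucose transporter GLUT3, was 4.18, 4.2 and 4.16 TPM in the controls and 0.97, 1.1 and 1.64 TPM at D14, with nearly equal controls (log2 difference -1.22 ± 0.16, adjusted p = 0.0059). Pfkfb3, an activator of glycolysis, was 159, 119.8 and 75 TPM in the controls and 55.8, 50.7 and 47.1 TPM at D14 (adjusted p = 0.0273). Pygm, muscle glycogen phosphorylase, fell by 0.53 on the log2 scale, whereas Ppp1r3a, which targets protein phosphatase to glycogen, was 9.51, 12.5 and 11.4 TPM in the controls and 22.5, 25.2 and 27.5 TPM at D14 (log2 difference 1.11 ± 0.14, adjusted p = 0.0059).

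Some genes of fibre atrophy fell. Of 23 members of the atrophy and FoxO list 5 fell, 0 rose and 18 did not pass the test (21.7% called, beside 9.58% of all genes). There were 11 positive and 12 negative differences, and the list's median was -0.06, which is -0.17 relative to the median of all genes. Fbxo32, the ubiquitin ligase atrogin-1, was 51.1, 46.7 and 43.9 TPM in the controls and 27.4, 20.4 and 29.8 TPM at D14 (log2 difference -0.86 ± 0.16, adjusted p = 0.0173). Trim63, the ubiquitin ligase MuRF1, was 274, 208 and 245 TPM in the controls and 126, 125 and 161 TPM at D14 (log2 difference -0.82 ± 0.15, adjusted p = 0.0165). Sqstm1, the autophagy receptor p62, was 508, 450.1 and 493 TPM in the controls and 287, 253 and 265 TPM at D14 (log2 difference -0.85 ± 0.11, adjusted p = 0.0059), and this call was kept in all 20 alternatives. Asb2 (-0.95 ± 0.19), a ubiquitin ligase subunit of muscle, and Nmrk2 (-0.80 ± 0.13), a nicotinamide riboside kinase, fell as well. Without control replicate 1 the list had 1 call and without control replicate 3 it had 2.

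Several defining adipocyte transcripts were far below control. Of 29 tested genes of the adipocyte and lipid storage list 11 fell and 1 rose, and 17 did not pass the test. The list's median difference was -0.32, which is -0.43 relative to the median of all genes. Adipoq, the adipocyte hormone adiponectin, was 23.1, 32.4 and 30.3 TPM in the controls and 2.65, 4.92 and 2.2 TPM at D14. The lowest control exceeded the highest D14 value several times over (log2 difference -2.84 ± 0.24, adjusted p = 0.000741). Cfd, the secreted protease adipsin, was 339, 421 and 302 TPM in the controls and 41, 70.0 and 45.9 TPM at D14 (log2 difference -2.76 ± 0.21, adjusted p = 0.000393). Cidec, a lipid droplet protein of fat cells, was 20.4, 20.8 and 18.2 TPM in the controls and 1.49, 3.67 and 2.59 TPM at D14 (log2 difference -2.58 ± 0.22, adjusted p = 0.000777). The same separation was seen for Plin1, the coat protein of adipocyte lipid droplets, with 9.34, 6.73 and 10.2 TPM in the controls and 1.41, 1.98 and 1.12 TPM at D14 (log2 difference -1.96 ± 0.20, adjusted p = 0.00199).

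Metabolic genes of fat followed. Retn, the hormone resistin, was 10.2, 15.2 and 12.5 TPM in the controls and 1.07, 2.94 and 1.3 TPM at D14 (log2 difference -2.34 ± 0.26, adjusted p = 0.00279). Pck1, which makes glycerol for triglyceride in fat, was 8.03, 7.92 and 7.09 TPM in the controls and 0.81, 1.84 and 1.26 TPM at D14 (log2 difference -1.94 ± 0.19, adjusted p = 0.00158). Scd1, the desaturase of stearic acid, was 45.8, 50.5 and 63.2 TPM in the controls and 10.2, 17.4 and 11.1 TPM at D14 (log2 difference -1.98 ± 0.21, adjusted p = 0.00243). Adipoq, Cfd, Cidec, Pck1 and Scd1 kept their calls in all 20 alternatives. The fatty acid synthesis genes Fasn (-0.78 ± 0.20), Acaca (-0.64 ± 0.16) and Acacb (-0.71 ± 0.18) fell by less, as did Trarg1, an adipocyte protein of glucose transport (-0.70 ± 0.16). Acaca lost the call when the tables were aligned on the D1 libraries.

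Lpl and Fabp4, which fibres, macrophages or capillaries also use, were not among the genes that fell. Lpl, the lipase that releases fatty acids from lipoproteins, was 61.8, 62.5 and 85.2 TPM in the controls and 223, 119 and 185 TPM at D14 and rose (log2 difference 1.29 ± 0.23, adjusted p = 0.0159). Fabp4, a fatty acid carrier of adipocytes and capillaries, was 264, 325 and 288 TPM in the controls and 343, 372 and 329 TPM at D14 and did not pass the test (log2 difference 0.25 ± 0.12, adjusted p = 0.195). Outside the list, Cyp2e1, a cytochrome P450 of liver and fat, was 37.9, 53.5 and 37.8 TPM in the controls and 2, 6 and 4.18 TPM at D14 (log2 difference -3.19 ± 0.29, adjusted p = 0.0012), with the call kept in all 20 alternatives. Hp, the haemoglobin scavenger haptoglobin, was 18.8, 23.4 and 30.5 TPM in the controls and 2.72, 7.61 and 4.82 TPM at D14 (log2 difference -2.12 ± 0.30, adjusted p = 0.00754). Rbp7, a retinol-binding protein of fat and endothelium, was 45.5, 48.2 and 24.3 TPM in the controls and 4.66, 11.3 and 11.8 TPM at D14 (log2 difference -2.01 ± 0.35, adjusted p = 0.0154).

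Summed over its 34 genes the adipocyte list held 0.305, 0.296 and 0.3% of all TPM in the controls and 0.256, 0.231 and 0.252% at D14, with 3 fairly even libraries in each group (exact permutation test, two-sided, p = 0.1). The calls lower ranged from 6 to 14 of the list's genes over all alternatives. The liver marker list, 1 of whose 3 tested genes was called (Cyp2e1), held 0.00388, 0.00876 and 0.0039% of all TPM in the controls and 0.000527, 0.0011 and 0.00114% at D14. Brown fat markers held 0.22, 0.23 and 0.209% of all TPM in the controls and 0.222, 0.2 and 0.213% at D14 and overlapped, and Ucp1, which defines brown fat, was listed at 0 in all 6 libraries. Most of this share was Cox8b, a cytochrome c oxidase subunit, at 2177, 2289 and 2067 TPM in the controls and 2201, 1983 and 2113 TPM at D14. The share is therefore no measure of brown fat. The part of RNA from such tissue in these differences was not tested.

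**Figure D4:**
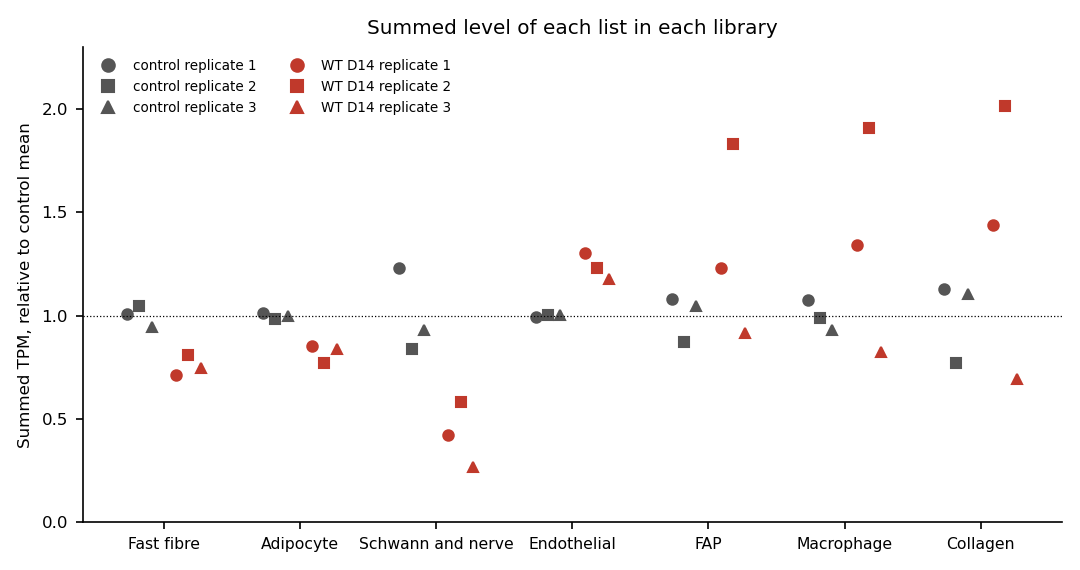
Summed TPM of 7 gene groups in each library, relative to the mean of the 3 controls (y axis, dotted line at 1). Grey symbols are controls and red symbols D14, with the replicate number by shape. The fast fibre, adipocyte and Schwann cell groups lie below 1 in all D14 libraries and the endothelial group above 1, whereas FAP, macrophage and collagen values at D14 straddle 1.

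Myelin transcripts were also low. Of 14 tested Schwann cell and nerve genes 7 fell and 0 rose, and all 14 differences were negative. The list's median was -0.79, which is -0.90 relative to the median of all genes. Mbp, myelin basic protein, was 126, 90.8 and 92.8 TPM in the controls and 35.3, 52.2 and 21.5 TPM at D14. The groups did not overlap (log2 difference -1.55 ± 0.28, adjusted p = 0.0172). Prx, the periaxin of myelinating Schwann cells, was 11.6, 7.97 and 8.78 TPM in the controls and 4.82, 5.42 and 3.16 TPM at D14 (log2 difference -0.94 ± 0.21, adjusted p = 0.0295), and Drp2, its partner at the Schwann cell surface, was 5.58, 3.82 and 4.86 TPM in the controls and 2.41, 2.91 and 2.06 TPM at D14 (log2 difference -0.73 ± 0.17, adjusted p = 0.0373). Mal (-0.82 ± 0.18), Cldn19 (-0.91 ± 0.22) and Ncmap (-0.91 ± 0.23), further components of compact and non-compact myelin, fell as well. The 18 listed genes held 0.0649, 0.0441 and 0.0489% of all TPM in the controls and 0.0223, 0.0306 and 0.0142% at D14 (exact permutation test, two-sided, p = 0.1). Control replicate 1 was the highest and D14 replicate 3 the lowest library. Leaving out any 1 of the 3 controls ended the calls of this list (0 of 14), and median-of-ratios scaling and quantile normalization raised them to 11 and 10.

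Few matrix transcripts passed the test. Of 40 collagen and matrix genes 2 rose and 1 fell, a share called higher below the 6.71% of all genes, with a list median of 0.38, which is 0.26 relative to the median of all genes. Postn, the matrix protein periostin made after injury, was 7.65, 7 and 8.8 TPM in the controls and 48.9, 90.5 and 17.3 TPM at D14. It rose (log2 difference 2.31 ± 0.48, adjusted p = 0.0243), and leaving out D14 replicate 1 or any 1 of the controls ended the call. Col8a1, a short-chain collagen, was 1.63, 1.59 and 2.35 TPM in the controls and 5.93, 6.86 and 3.11 TPM at D14 (log2 difference 1.10 ± 0.25, adjusted p = 0.0325). Mmp9, a gelatinase of leukocytes, was 5.79, 4.1 and 3.24 TPM in the controls and 0.69, 1.73 and 0.69 TPM at D14 and fell (log2 difference -1.41 ± 0.25, adjusted p = 0.015). The main fibrillar collagens did not pass the test. Col1a1 was 231, 115 and 231 TPM in the controls and 300.2, 439 and 85.2 TPM at D14, and Col3a1 was 259.8, 224 and 275 TPM in the controls and 432, 724 and 211 TPM at D14. For Col1a1, D14 replicates 1 and 2 lay above every control and D14 replicate 3 below every control.

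A few FAP and fibroblast genes rose. Of 21 FAP genes tested 3 rose and 0 fell (14.3% called, beside 9.58% of all genes), with a list median of 0.46, which is 0.35 relative to the median of all genes. Lum, the proteoglycan lumican, was 14, 14.9 and 17.6 TPM in the controls and 51, 58.4 and 33 TPM at D14 (log2 difference 1.52 ± 0.21, adjusted p = 0.00702). Tcf4, an E-protein transcription factor, was 6.29, 6.28 and 7.17 TPM in the controls and 19.9, 18.5 and 15.5 TPM at D14 (log2 difference 1.32 ± 0.14, adjusted p = 0.00258), and its call was kept in all 20 alternatives. Tcf4 was counted in the list but is not particular to FAPs, so its rise is not a reading of FAPs. Cd55, which protects cells from complement, was 17.9, 19.6 and 19.6 TPM in the controls and 40.2, 42.8 and 29.2 TPM at D14 (log2 difference 0.92 ± 0.16, adjusted p = 0.0144). Among genes outside the list, Aspn, a small proteoglycan of matrix, was 3.88, 4.48 and 4.07 TPM in the controls and 19.3, 31.9 and 13.4 TPM at D14 (log2 difference 2.05 ± 0.27, adjusted p = 0.0059), and Cthrc1, a secreted protein of matrix-forming fibroblasts, was 0.86, 1 and 0.7 TPM in the controls and 8.54, 8.07 and 1.78 TPM at D14 (log2 difference 1.75 ± 0.42, adjusted p = 0.0375). Cthrc1 lost the call under quantile normalization.

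These groups depended on 1 library. Collagen genes held 0.14, 0.0957 and 0.137% of all TPM in the controls and 0.179, 0.25 and 0.0862% at D14, and the FAP list held 0.232, 0.188 and 0.225% of all TPM in the controls and 0.265, 0.394 and 0.197% at D14. D14 replicates 1 and 2 were above the controls in both, while D14 replicate 3 was below them for collagen and among them for FAP genes (exact permutation tests, two-sided, p = 0.5 and p = 0.3). Without D14 replicate 3 the calls rose from 2 to 22 of 40 for matrix genes and from 3 to 11 of 21 for FAP genes. Tendon, cartilage and bone markers, at 0.0445, 0.023 and 0.0425% of all TPM in the controls and 0.0504, 0.063 and 0.0175% at D14, had the same order among the D14 libraries, and their part in these values was not tested.

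Macrophage transcripts showed the same split. Of 31 macrophage genes 2 rose and 1 fell, about the share of all genes, with a list median of 0.36, which is 0.24 relative to the median of all genes. Trem2, a lipid receptor of macrophages, was 1.16, 0.86 and 0.56 TPM in the controls and 6.5, 11.6 and 1.81 TPM at D14 (log2 difference 1.80 ± 0.46, adjusted p = 0.044), a call lost under quantile normalization and in 5 of 6 leave-one-out fits. The other gene called higher was Lpl. Ctsd, the lysosomal protease cathepsin D, was 429, 390.3 and 413 TPM in the controls and 316, 272 and 278 TPM at D14 (log2 difference -0.51 ± 0.11, adjusted p = 0.029). Lyve1, which marks resident macrophages and lymphatic vessels, was 6.88, 7.03 and 10.8 TPM in the controls and 3.7, 12.6 and 5.4 TPM at D14, with D14 replicate 2 above and the other two below all controls (log2 difference -0.29 ± 0.36, adjusted p = 0.623). The listed genes summed to 0.171, 0.157 and 0.148% of all TPM in the controls and 0.213, 0.303 and 0.131% at D14 (exact permutation test, two-sided, p = 0.4), and without D14 replicate 3 the calls higher went from 2 to 13 of 31.

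Antigen-presentation genes lay above control on average without a call. All 8 MHC class II genes tested had positive differences, and the median was 0.81, which is 0.70 relative to the median of all genes. Cd74, the invariant chain, was 188, 145 and 113 TPM in the controls and 310.0, 451 and 126 TPM at D14 (log2 difference 0.83 ± 0.41, adjusted p = 0.21), and H2-Ab1, a class II beta chain, was 77.6, 60.6 and 48.3 TPM in the controls and 175, 237 and 64.2 TPM at D14 (log2 difference 1.17 ± 0.42, adjusted p = 0.105). Neither passed the test with all libraries. Limma called 0 of the 8 genes, 2 had an unadjusted p under 0.05, and 6 passed without D14 replicate 3. Of 19 chemokine and cytokine genes 0 passed the limma test in either direction (3 had an unadjusted p under 0.05), and lymphocyte genes held 0.0052, 0.00661 and 0.00678% of all TPM in the controls and 0.00599, 0.00622 and 0.00617% at D14.

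A set of interferon-stimulated genes rose at low levels. Of 26 tested 6 rose and 0 fell, and the list's median was 0.37, which is 0.26 relative to the median of all genes. Gbp3, a guanylate-binding GTPase, was 1.14, 1.63 and 1.25 TPM in the controls and 3.27, 3.85 and 3.32 TPM at D14 (log2 difference 0.94 ± 0.15, adjusted p = 0.0128). Ifit1, which binds foreign RNA ends, was 0.39, 0.77 and 0.69 TPM in the controls and 1.48, 2.29 and 1.83 TPM at D14 (log2 difference 0.82 ± 0.17, adjusted p = 0.0261). Rsad2, the antiviral enzyme viperin, was 0.92, 1.04 and 1.19 TPM in the controls and 2.99, 2.38 and 2.17 TPM at D14 (log2 difference 0.77 ± 0.15, adjusted p = 0.0222). The groups of these 3 genes did not overlap, but the levels were near the TPM minimum. Ifit2 (0.74 ± 0.17), Ifit3b (0.67 ± 0.18) and Xaf1 (0.66 ± 0.16) were the other calls. Ifit3b and its relatives are near-identical copies between which reads may be split. Quantile normalization left 1 call and median-of-ratios scaling 4, and 0 remained without control replicate 1 or without control replicate 3.

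The Ifit1 window is printed as the example of this list (chr19:34640639-34640938, GRCm38.p6, plus strand). Capitals mark 2 matches of GAAA, any 2 bases and GAAA, the core of the interferon-stimulated response element, read on the opposite strand, 104 and 85 bases before the start.
Ifit1: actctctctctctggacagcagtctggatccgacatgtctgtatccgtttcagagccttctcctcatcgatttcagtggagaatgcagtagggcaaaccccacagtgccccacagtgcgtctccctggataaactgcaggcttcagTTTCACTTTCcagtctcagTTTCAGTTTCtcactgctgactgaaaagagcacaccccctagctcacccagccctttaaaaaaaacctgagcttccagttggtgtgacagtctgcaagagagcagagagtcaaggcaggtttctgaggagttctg
The core stood in windows of 14 of the 25 listed genes that matched the RefSeq table (28 windows), including Gbp3, Ifit3b and Rsad2. It stood in 3.44% of all 32851 windows, a share by window that is not like for like with a count by gene.

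Vessel transcripts were higher in every D14 library. The 34 endothelial and angiogenesis genes held 0.0938, 0.0947 and 0.0946% of all TPM in the controls and 0.123, 0.116 and 0.111% at D14, with nearly equal controls (exact permutation test, two-sided, p = 0.1). Of 32 tested 6 rose and 1 fell, and the median was 0.30, which is 0.18 relative to the median of all genes. Rgs5, a pericyte regulator of G proteins, was 33.5, 52.4 and 48 TPM in the controls and 110.4, 102 and 113 TPM at D14 (log2 difference 1.28 ± 0.17, adjusted p = 0.006). Erg, the ETS factor of endothelial identity, was 3.57, 3.01 and 4.05 TPM in the controls and 8.94, 9.97 and 8.31 TPM at D14 (log2 difference 1.15 ± 0.15, adjusted p = 0.0059). Both kept the call in all 20 alternatives. Aplnr, the apelin receptor of sprouting vessels, was 5.93, 5.69 and 5.04 TPM in the controls and 19.9, 12.6 and 8.55 TPM at D14 (log2 difference 1.09 ± 0.26, adjusted p = 0.0362). The angiogenic ligands Angpt1 (0.71 ± 0.16) and Dll4 (0.59 ± 0.14) and the endothelial factor Egfl7 (0.53 ± 0.13) rose as well. Plvap, the diaphragm protein of fenestrated capillaries, was 28.7, 29.5 and 27.1 TPM in the controls and 17.5, 19.7 and 11.4 TPM at D14 and fell (log2 difference -0.81 ± 0.19, adjusted p = 0.0366). Haemoglobin genes held 0.164, 0.198 and 0.144% of all TPM in the controls and 0.209, 0.22 and 0.25% at D14, also without overlap, and their part in the vessel values was not tested. Quantile normalization left 3 genes called higher. Over the 6 fits with 1 library left out, Aplnr, Angpt1 and Dll4 kept the call in 1 each, and Egfl7 and Plvap in 2 each.

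Clock genes shifted in both directions. Of 19 circadian genes tested 3 rose and 3 fell (31.6% called, beside 9.58% of all genes). Per3, a period gene of the repressing limb, was 2.22, 1.85 and 1.49 TPM in the controls and 5.63, 9.54 and 7.11 TPM at D14, more than doubled in each D14 library relative to each control (log2 difference 1.54 ± 0.20, adjusted p = 0.0059). Dbp, an activator at D-boxes, was 41.1, 45.2 and 24.5 TPM in the controls and 78.1, 97.2 and 85.2 TPM at D14 (log2 difference 1.25 ± 0.22, adjusted p = 0.0147). Nr1d2, the repressor REV-ERB beta, was 14.1, 18.3 and 16.3 TPM in the controls and 29.9, 45.3 and 37.9 TPM at D14 (log2 difference 1.15 ± 0.17, adjusted p = 0.0099).

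The falling members included Arntl, the activator BMAL1, with 10.4, 7.91 and 12.3 TPM in the controls and 6.76, 2.79 and 4.25 TPM at D14 (log2 difference -1.04 ± 0.26, adjusted p = 0.0433). Nfil3, which represses at the D-boxes that Dbp activates, was 34.4, 26.1 and 18.3 TPM in the controls and 6.67, 13.4 and 13.9 TPM at D14 (log2 difference -1.17 ± 0.29, adjusted p = 0.0431), and it lost the call under quantile normalization. Nr1d1, REV-ERB alpha, was 100.3, 79.9 and 85.1 TPM in the controls and 69.3, 50.6 and 50.03 TPM at D14 (log2 difference -0.64 ± 0.16, adjusted p = 0.0396). The paralogs Nr1d1 and Nr1d2 thus differed in direction. Ciart, a repressor of the clock, was 2.03, 2.31 and 1.26 TPM in the controls and 2.58, 8.08 and 7.44 TPM at D14 and did not pass the test (log2 difference 1.20 ± 0.34, adjusted p = 0.0596). Without control replicate 1 the calls were 1 higher and 0 lower, and without control replicates 2 or 3 they were 3 higher and 0 lower. The hour of collection is given for neither group.

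Windows of 3 of these genes are printed because they hold elements of the clock, with build GRCm38.p6. Per3 (chr4:151044616-151044915, minus strand) holds 2 D-boxes, TTATGTAA, 205 and 158 bases before the start. Arntl (chr7:113207261-113207560, plus strand) and Nfil3 (chr13:52980990-52981289, minus strand) each hold the core TAGGTCA, the element of REV-ERB and ROR receptors, starting at base 31 of the transcript in Arntl and, on the opposite strand, 12 bases before the start in Nfil3. Capitals mark these matches.
Per3: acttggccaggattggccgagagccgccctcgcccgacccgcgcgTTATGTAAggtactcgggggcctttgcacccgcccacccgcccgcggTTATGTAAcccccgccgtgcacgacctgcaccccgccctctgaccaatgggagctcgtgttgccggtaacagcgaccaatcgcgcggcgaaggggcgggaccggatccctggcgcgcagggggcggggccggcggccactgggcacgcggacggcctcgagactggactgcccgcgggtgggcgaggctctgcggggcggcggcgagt
Arntl: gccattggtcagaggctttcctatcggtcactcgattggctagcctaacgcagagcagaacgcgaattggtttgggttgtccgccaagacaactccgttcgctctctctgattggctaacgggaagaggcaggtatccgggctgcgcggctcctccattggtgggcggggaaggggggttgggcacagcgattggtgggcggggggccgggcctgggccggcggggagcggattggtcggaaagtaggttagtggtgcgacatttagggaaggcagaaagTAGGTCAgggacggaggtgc
Nfil3: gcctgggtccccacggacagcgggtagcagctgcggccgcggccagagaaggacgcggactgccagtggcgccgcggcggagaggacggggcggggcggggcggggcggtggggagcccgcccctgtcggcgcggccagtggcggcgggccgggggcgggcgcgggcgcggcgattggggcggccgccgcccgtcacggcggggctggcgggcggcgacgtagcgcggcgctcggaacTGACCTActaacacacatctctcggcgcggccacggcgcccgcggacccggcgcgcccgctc
Both strands were searched in 17 of the 20 listed clock genes that matched, with 22 windows. The D-box stood in 1 gene (Per3) and in 0.938% of all windows, the REV-ERB core in 2 genes and in 2.61%, and the E-box CACGTG in 5 genes and in 7.15%. Here too the list is counted by gene and the background by window. Myh4's CAGCTG is another E-box, and the clock list held it in Nfil3 and Tef.

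Immediate early genes rose in part. Of 21 tested 4 rose and 0 fell. Klf6 (4.16, 7.43 and 6.52 TPM in the controls and 16.7, 17.6 and 12.6 TPM at D14), Klf4 (9, 8.19 and 11.5 TPM in the controls and 16.8, 30.2 and 19.5 TPM at D14) and Klf2 (20.4, 16.8 and 18.1 TPM in the controls and 54.2, 40.5 and 29.9 TPM at D14) encode Krüppel-like transcription factors. In each of them the lowest D14 library exceeded the highest control (adjusted p = 0.014, 0.022 and 0.0183). Dusp1, a phosphatase of stress kinases, rose by 0.73 ± 0.18. Klf9, a target of the glucocorticoid receptor, was 22.9, 23.4 and 24.8 TPM in the controls and 40.5, 44.7 and 46.8 TPM at D14 (log2 difference 0.87 ± 0.12, adjusted p = 0.00649). Ddit4, an inhibitor of mTORC1, was 12.1, 11.7 and 22.4 TPM in the controls and 41.9, 71.2 and 55 TPM at D14 (log2 difference 1.83 ± 0.27, adjusted p = 0.00877), while Pdk4, also a glucocorticoid target, fell as given above. Of the 23 genes of the glucocorticoid and fasting list 2 rose and 1 fell.

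Single growth arrest genes rose, and proliferation genes went in both directions. Of 18 cell cycle inhibitors and p53 targets 3 rose and 0 fell (16.7% called, beside 9.58% of all genes), with 11 positive and 7 negative differences. Cdkn2a, which encodes p16 and p19ARF, was 0.34, 0.27 and 0.11 TPM in the controls and 1.39, 1.74 and 1.85 TPM at D14 (log2 difference 1.10 ± 0.15, adjusted p = 0.00754). Trp53inp1 (1.09 ± 0.25) and Ccng1 (0.79 ± 0.15), both targets of p53, were the others, and lost the call under quantile normalization and median-of-ratios scaling, respectively. Trp53i11 outside the list was 3.61, 3.3 and 4.14 TPM in the controls and 17.5, 12.6 and 9.5 TPM at D14 (log2 difference 1.56 ± 0.21, adjusted p = 0.00649). Of 11 proliferation genes high enough to be tested 0 rose and 1 fell (9.09% called, beside 9.58% of all genes). The list had 6 positive and 5 negative differences and a median of 0.0123. The gene that fell was Aurka, a mitotic kinase, with 12.4, 10.7 and 11.9 TPM in the controls and 3.64, 2.73 and 5.27 TPM at D14 (log2 difference -1.41 ± 0.20, adjusted p = 0.00754).

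Gsdme, which encodes the pore-forming protein of this study, was 1.55, 2.34 and 1.65 TPM in the controls and 1.46, 2.21 and 2.26 TPM at D14. The groups overlapped and did not differ beyond their spread (log2 difference 0.06 ± 0.18, adjusted p = 0.843), and the sign of the difference turned under quantile normalization and median-of-ratios scaling. Of 12 gasdermin and pyroptosis genes tested 2 rose and 0 fell (16.7% called, beside 9.58% of all genes). Pycard, the inflammasome adaptor ASC, was 0.42, 0.31 and 0.25 TPM in the controls and 1.43, 4.68 and 1.6 TPM at D14 (log2 difference 1.32 ± 0.30, adjusted p = 0.0333). Its control values were under the TPM minimum, and the call was lost with a pseudocount of 5 and without any 1 of the controls. Pycard was also 1 of 9 genes at least 2-fold above every control in all 24 injured libraries.

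D14 was set beside WT D7 to describe how far the called genes had come. For 654 of the 783 genes called higher (83.5%), the D14 mean lay between control and D7, and for 119 (15.2%) it was as far from control as D7 or farther. Postn, with a D4 mean of 1700 TPM and a D7 mean of 813 TPM, Lum with a D7 mean of 153 TPM and Trem2 with a D7 mean of 55.8 TPM were examples of the first kind. Of the 335 genes called lower, 109 (32.5%) lay between, 183 (54.6%) were as far from control as D7 or farther and 43 (12.8%) were on the other side of control at D7. Adipoq had a D7 mean of 8.97 TPM and Mbp of 43.2 TPM, both above D14, while Myh4 at 3620 TPM and Tnnt3 at 15300 TPM were below it. The D14 values chose these genes, so the shares are a description, and D7 and D14 share the table while the controls do not.

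**Figure D5:**
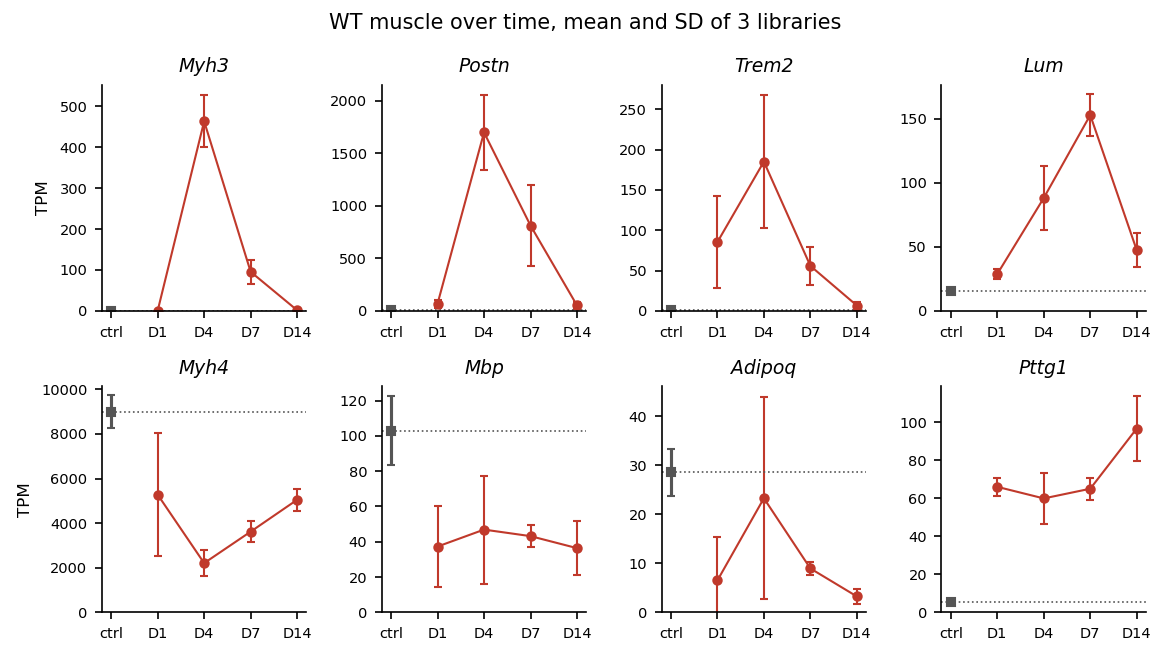
Mean TPM ± SD (n = 3) of 8 genes in control muscle (grey square and dotted line) and in WT muscle at D1, D4, D7 and D14 (red). Myh3, Postn and Trem2 peak at D4 and Lum at D7, Myh4 climbs from D4 to D14 without reaching control, Mbp is below control at each time, Adipoq has its lowest mean at D14, and Pttg1 is above control at each time. Error bars that would pass below 0 are clipped at 0.

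Some of the largest differences were shared by all injured muscle. For 17 of the tested genes, every one of the 24 injured libraries, WT and KO, lay at least 2-fold above (9 genes) or below (8 genes) every control. Pttg1, the anaphase inhibitor securin, was 6.08, 5.41 and 4.17 TPM in the controls and 115, 81.4 and 94.1 TPM at D14 (log2 difference 3.97 ± 0.17, adjusted p = 5.89e-06), and the injured libraries ranged from 44.4 to 115 TPM. Agpat4, a phospholipid acyltransferase, was 0.31, 0.33 and 0.49 TPM in the controls and 4.84, 7.6 and 2.83 TPM at D14 (log2 difference 2.07 ± 0.27, adjusted p = 0.0059). Bsn, a scaffold of nerve terminals, was 20.9, 21.2 and 17.6 TPM in the controls and 0.07, 0.03 and 0.01 TPM at D14 (log2 difference -4.33 ± 0.14, adjusted p = 1.56e-06). Tpm3-rs7, a copy of tropomyosin 3, was 14.5, 13.5 and 15.3 TPM in the controls and 0.05, 0 and 0.03 TPM at D14, and Rps27rt, a copy of ribosomal protein S27, was 397, 399 and 402 TPM in the controls and 89.7, 152 and 63.9 TPM at D14. Rps3a2, a copy of ribosomal protein S3a, was 52.1, 53.5 and 44 TPM in the controls and listed at 0 in the D14 libraries. Reads of such copies may be split with their near-identical parents. Rny1, a small Y RNA, was listed at 0 in all controls and at 63.8, 128 and 153 TPM at D14. It was not among the 17 genes, since it was also listed at 0 in WT D7 replicate 2. In all, 6 genes were listed at 0 in every control with at least 5 TPM in each D14 library, and 3 were listed at 0 in every D14 library with at least 5 TPM in each control. Batch, injury and mouse source cannot be told apart in any of them. 2 further genes named for their size were Prkg1, a cGMP-dependent kinase, with 1.19, 1.23 and 2.16 TPM in the controls and 9.69, 5.75 and 6.08 TPM at D14 (log2 difference 1.68 ± 0.23, adjusted p = 0.00668), and Six2, a homeobox factor, with 12.8, 20.5 and 22.5 TPM in the controls and 1.69, 5.12 and 4.26 TPM at D14 (log2 difference -2.11 ± 0.32, adjusted p = 0.0104).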

How the data were processed

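Whole-muscle RNA was sequenced with paired ends from libraries made with a SMARTER mRNA kit, per the labels. The authors deposited TPM per gene in 2 tables normalised separately, 1 with the injured libraries (55852 entries) and 1 with the control and WT D1 libraries (55677 entries). The build was mm10 per the submitters' processing notes. Aligner, counter and annotation are not given in the sources used here. Depth is unknown, so no interval or limit of detection was computed. Columns of functional annotation in the tables were not used.

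Tables were joined on gene ID (55419 IDs). Genes with at least 1 TPM in at least 3 of the 6 libraries (12216) were kept where the mean of the 3 WT D1 libraries differed by at most 20% between tables, which left 11667. Among these the median D1 difference was 0.19%, and 89.8% of genes were within 5%. Groups were taken from the sample titles. Log2(TPM + 1) values were fitted with limma 3.58.1 (R 4.3.3), with empirical Bayes moderation and a variance trend, for 2 groups of 3 libraries and no covariate. P-values were adjusted by Benjamini-Hochberg over all genes tested, and genes under 0.05 were called. Shares of TPM were compared by the exact permutation test, which cannot go below 0.1 here. Shares and motifs were computed in Python 3.11.15 with pandas 2.3.3 and numpy 2.4.6. On simulated data of this comparison with 11667 genes, 62% of genes changed by a log2 difference of 1 and 94% of those changed by 2 were recovered, with 0.0436% of unchanged genes called, and 0 were called when none was changed. The changed genes were drawn only from genes with a mean level above 5 TPM. Noise was drawn independently for each gene and library. These rates therefore do not cover lower genes or deviations that a whole library or batch shares.

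Gene lists (46) and members were chosen with earlier results of these data known. Named genes were the 12 largest rises and 12 largest falls among called, named genes with groups that did not overlap and a mean of at least 5 TPM in the higher group, up to 3 called genes per list by size of change (or up to 2 by level where none was called), and a set of 15 genes such as Myh4, Adipoq, Plin1, Gsdme and Dbp. Some members of these lists are not reported here. Other members named were chosen after their values were seen. Promoter windows were taken from RefSeq for GRCm38.p6, the assembly of mm10. Alternatives covered the joining of tables, filters, pseudocount, scaling, model and each library left out.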

Additional observations from a re-analysis of the deposited data

Results flagged for a closer look

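2 genes went below control in all WT D14 libraries and above control in all KO D14 libraries. The controls are shared by both comparisons, and the difference between the genotypes was not tested here. Fasn, fatty acid synthase, was 16.4, 18 and 17.6 TPM in the controls, 9.85, 13 and 7.03 TPM in WT D14 and 21.4, 160.5 and 65.8 TPM in KO D14 muscle. Its log2 difference from control was -0.78 in WT and 1.76 in KO. Hp, haptoglobin, was 18.8, 23.4 and 30.5 TPM in the controls, 2.72, 7.61 and 4.82 TPM in WT D14 and 31, 34.9 and 51.4 TPM in KO D14 muscle. Its log2 difference from control was -2.12 in WT and 0.659 in KO.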

How the results depend on the processing

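The count of 1118 called genes became 165 without a filter on low TPM, 363 with all 5 WT groups in the fit and 2172 with library quality weights. The count of 241 genes called by at least 2-fold became 382 without the D1 agreement filter, 461 and 77 with pseudocounts of 0.1 and 5, 82 without a filter on low TPM, 150 with at least 5 TPM, 372 after removal of abundant genes and 156 with all 5 WT groups. Leaving out 1 library gave 113 (without control replicate 1) to 1773 (without D14 replicate 3) calls, and 98 to 432 by at least 2-fold.

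Of the 127 called genes named, 124 kept the call after alignment on the D1 libraries, 112 under median-of-ratios scaling, 106 under quantile normalization, 30 without a filter on low TPM, 55 with all 5 WT groups and 33 to 113 with 1 library left out. None of the 127 changed sign in these fits. The sign turned for uncalled values: Gsdme (-0.0164 under median-of-ratios scaling, and -0.177 under quantile normalization), and, over the fits with 1 library left out, Myh1 (-0.0203 to 0.677), Myh2 (-0.338 to 0.809), Col1a1 (-0.191 to 0.985), Lyve1 (-0.727 to 0.0401) and Gsdme (-0.0109 to 0.195). Likewise for shares of TPM, in percentage points, the top 50 genes (-1.47 to 0.842), slow fibre genes (-0.0686 to 0.27), lymphocyte genes (-0.000569 to 0.000222) and tendon markers (-0.00275 to 0.02). The cause of these changes was not tested.

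Same-numbered libraries of the groups had deviation correlations of 0.156, 0.138 and 0.092, and the other pairs ran from -0.224 to 0.094. Whether the numbers pair the groups cannot be told from these values. The fit with the replicate block called 912 genes. Each D14 library correlated best with the control of its own number, whereas control replicate 3 did so with D14 replicate 1. Relative TPM without depth limits what low genes can show.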

Other observations

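Further gene groups moved little or in both directions. Of 21 heat shock and chaperone genes 3 fell and 1 rose. Hspb8, a small heat shock protein of Z-disc upkeep, was 280.2, 260.4 and 300.4 TPM in the controls and 186, 184 and 186 TPM at D14 (log2 difference -0.59 ± 0.10, adjusted p = 0.0159). Hspa8, a constitutive HSP70, and Dnajb5, a J-domain cochaperone, fell too (-0.51 ± 0.13 and -0.56 ± 0.13), while Dnajb4 rose (0.51 ± 0.13) and lost the call under median-of-ratios scaling. Of 28 lysosome genes 3 fell and 1 rose (14.3% called), with 17 positive and 11 negative differences. Gaa, the acid glucosidase that degrades glycogen, was 127, 109 and 127 TPM in the controls and 73.1, 63.5 and 66.1 TPM at D14 (log2 difference -0.83 ± 0.12, adjusted p = 0.00796), and Npc1, a lysosomal cholesterol exporter, was 29.1, 25.3 and 33.1 TPM in the controls and 15.2, 15.8 and 16.1 TPM at D14 (log2 difference -0.84 ± 0.13, adjusted p = 0.0119). Lamp2, a lysosomal membrane protein, was 22.9, 22.3 and 25.7 TPM in the controls and 42.8, 52.2 and 34 TPM at D14 and rose (log2 difference 0.82 ± 0.16, adjusted p = 0.0224).

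Of 18 metallothionein, heme and iron genes 2 fell and 1 rose (16.7% called, beside 9.58% of all genes), with 8 positive and 10 negative differences. Trf, the iron carrier transferrin, was 71.6, 89.8 and 65.5 TPM in the controls and 26.4, 54.5 and 18.2 TPM at D14 (log2 difference -1.30 ± 0.33, adjusted p = 0.0447), and Ireb2, which senses iron, was 2.69, 3.4 and 3.96 TPM in the controls and 6.89, 7.14 and 5.72 TPM at D14 (log2 difference 0.81 ± 0.16, adjusted p = 0.0237). Of 25 genes of TGF-beta and myostatin signalling 1 rose and 1 fell (8.0% called), but 21 differences were positive and 4 negative. Id1, a target of BMP signals, was 30.0, 29.1 and 26 TPM in the controls and 43.2, 56 and 60.7 TPM at D14 (log2 difference 0.88 ± 0.15, adjusted p = 0.0143), and Smad3, which carries TGF-beta signals, was 53.7, 39.8 and 50.4 TPM in the controls and 24.2, 23.4 and 32.1 TPM at D14 (log2 difference -0.83 ± 0.17, adjusted p = 0.0222). Of 20 complement genes 2 rose and 2 fell, among the latter the extracellular chaperone Clu (-1.23 ± 0.19). Plagl1, an imprinted growth regulator, was 2.08, 1.36 and 1.53 TPM in the controls and 5.34, 5.23 and 2.74 TPM at D14 (log2 difference 1.00 ± 0.23, adjusted p = 0.0331), the 1 call among 20 growth factor and imprinted genes, with a D7 mean of 64.3 TPM. That list had 5.0% called, with 17 positive and 3 negative differences. Acta2, smooth muscle actin, was 115, 117 and 101 TPM in the controls and 54.3, 84.2 and 72.9 TPM at D14 and fell (log2 difference -0.66 ± 0.17, adjusted p = 0.0411). Trf and Acta2 lost the call under quantile normalization. Of 75 cytosolic ribosomal protein genes 2 rose (Rps23 and Rps29, 0.59 ± 0.15 and 0.51 ± 0.12), neither of them under median-of-ratios scaling. The share called was 2.67%, with 44 positive and 31 negative differences. Of 20 cholesterol synthesis genes limma called 0 in either direction, and 4 had an unadjusted p under 0.05, 2 of them higher and 2 lower.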
